A study of Rattus norvegicus with 74 samples.

Results

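The comparison described here sets livers of rat pups given DE-71 at 50 mg/kg (4 arrays, replicates 2 to 5) against livers of pups given 0 mg/kg in the DE-71 part of the study (5 arrays, replicates 1 to 5). These are all arrays that the labels place in those groups, 9 of the 74 of the series. DE-71 is a commercial flame retardant, a mixture of polybrominated diphenyl ethers, and BDE-47, given to other pups of the series, is 1 congener of that class. All animals were Wistar Han rats, Crl:WI(Han). Dams were dosed by gavage from gestation day 6 to 21 and pups from postnatal day 12 to 21, and the left liver lobe was taken on postnatal day 22. Besides 50 and 0 mg/kg, DE-71 and BDE-47 were given at 0.1 and 15 mg/kg. The labels do not give the sex of a pup and do not say that pups of a group came from separate litters. The p values below therefore rest only on the spread between arrays, taken from all groups of the series and not from these 9 alone. A whole lobe holds several cell types, and a change in the share of a cell type and a change in RNA per cell cannot be told apart.

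The liver clears foreign compounds in steps. Ligand-activated receptors in hepatocytes, among them the aryl hydrocarbon receptor (AhR), the constitutive androstane receptor (CAR) and the pregnane X receptor (PXR), raise the transcription of cytochrome P450 genes, whose products oxidize the compound. Transferases then attach glucuronic acid, sulfate or glutathione, and export pumps carry the conjugates into bile or blood. AhR is best known for inducing the CYP1 family and CAR and PXR for inducing CYP2B, CYP2C and CYP3A enzymes, while NRF2, a sensor of electrophiles, controls many conjugation and quinone-reducing enzymes. The same conjugation enzymes also handle thyroid hormones, steroids and bilirubin.

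Values are log2 expression per gene, each gene read from 1 probe set, and 1 log2 unit is a doubling. A difference is the mean of the 50 mg/kg arrays minus the mean of the 0 mg/kg arrays, given with its standard error (SE). A gene is said to have risen or fallen when its p value, adjusted over all 14217 genes, was below 0.05 in a limma fit that took its spread from all groups of the series. Per-array values are listed in the order of replicates 2 to 5 at 50 mg/kg and replicates 1 to 5 at 0 mg/kg. P450, glucuronosyltransferase and sulfotransferase genes have close relatives, and a probe set can also bind their transcripts.

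Replicate 2 of 50 mg/kg stood apart. Its mean correlation with the other arrays of its group was 0.9783, against 0.9845 to 0.9856 for replicates 3 to 5 and 0.9878 to 0.9895 among the 0 mg/kg arrays. In 494 genes it lay more than 1 log2 unit from the mean of the other 50 mg/kg arrays (275 above and 219 below), and replicates 3, 4 and 5 did so in 116, 158 and 128 genes. Replicate 4 was nearly identical to an array labelled DE-71 15 mg/kg, replicate 5: their root mean square difference over 300 variable genes was 0.124. Replicate 4 also lay closer to the other 15 mg/kg arrays (0.579 to 0.706) than to replicate 3 (0.812), its closest array at 50 mg/kg. Replicates 3 and 5 of 50 mg/kg likewise had a 15 mg/kg array as their closest (0.763 and 0.842), but neither was nearly identical to it. Whether the array labelled replicate 4 of 50 mg/kg holds a liver of that dose cannot be told from the files, so each mean and count over 4 arrays rests on the label, and of 198 called genes chosen for naming 189 were called without it. The difference between 3' and 5' beta-actin probe sets, which grows as RNA degrades, was 1.79, 2.81, 1.53 and 0.9 log2 units at 50 mg/kg, against 1.64, 1.21, 2.99, 3.0 and 1.3 at 0 mg/kg, so high and low values occurred in both groups. Alb, which encodes albumin, lay between 14.72 and 14.78 on all 9 arrays, and the pancreatic trypsinogen genes Prss1 and Prss2 at 2.56 to 3.50. Xist, transcribed from the inactive X chromosome of females, lay at 2.63 to 3.15, and the Y-linked gene Eif2s3y at 8.47 to 9.42, so neither gene split the 9 arrays into 2 kinds.

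In the livers at 50 mg/kg, 687 genes rose and 761 fell, 10.2% of the 14217 genes tested (4.83% risen and 5.35% fallen). Without replicate 2 these counts were 241 and 147 (2.73% in all, 1.7% risen and 1.03% fallen), and 380 genes were called in the same direction both ways, 239 up and 141 down (2.67%). Among changes of at least 4-fold, 24 genes rose (0.169%) and 6 fell (0.0422%) with all arrays, and 18 rose (0.127%) and 2 fell (0.0141%) without replicate 2. Without replicate 4 the counts of risen and fallen genes were 973 and 990 (13.8%), and with only the 9 arrays in the fit 85 and 33 (0.83%). Across the 14217 genes the log2 fold change had a median of 0.0019 with all arrays and -0.011 without replicate 2. Each list below is read against these shares, and counts without replicate 2 follow the counts with all arrays. A gene called both ways was called with and without replicate 2, which does not cover the fit with only the 9 arrays. In that fit 6 of 26 NRF2 target genes, 4 of 9 UDP-glucuronosyltransferase genes and 4 of 21 glutathione S-transferase genes rose.

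**Figure D1:**
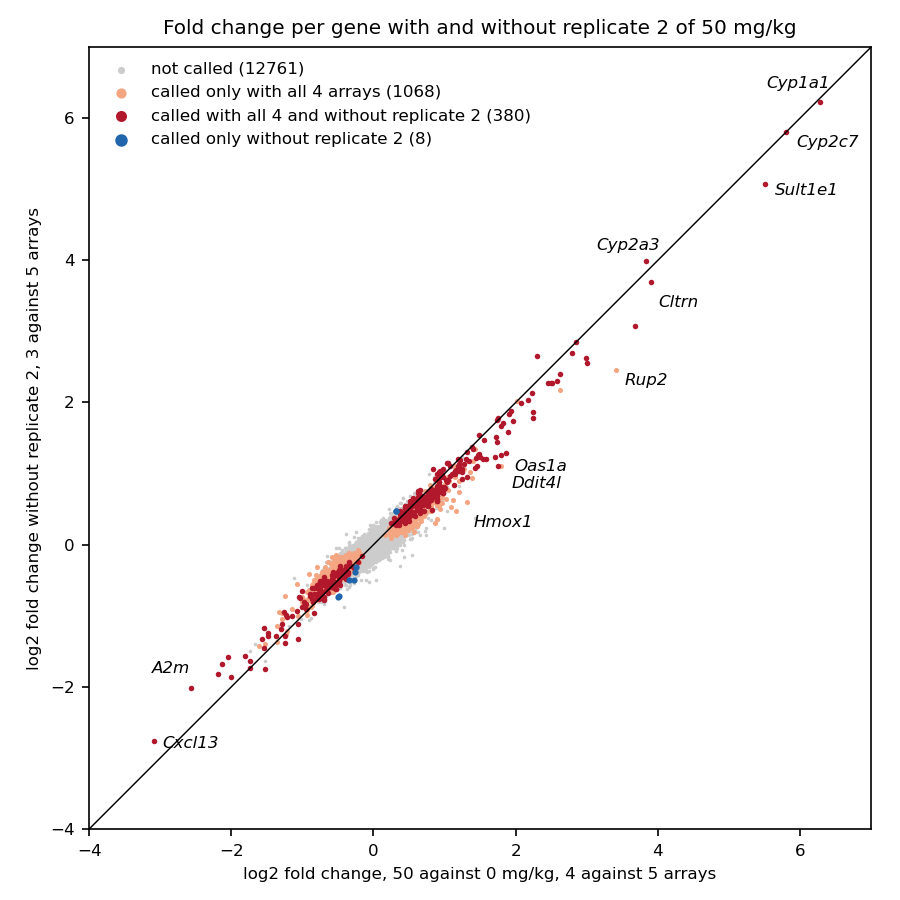
Each point is a gene, with its log2 fold change (50 against 0 mg/kg) over 4 against 5 arrays on the x axis and without replicate 2 of 50 mg/kg on the y axis, coloured by call. The largest changes, such as Cyp1a1, Cyp2c7 and Sult1e1, lie near the diagonal, while Rup2, Ddit4l and Hmox1 lie below it and were called only with replicate 2.

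A P450 gene under AhR control, Cyp1a1, showed the largest fold change of the comparison. Cyp1a1, whose product oxidizes planar aromatic compounds and serves as the classic readout of AhR activity, had 13.35, 12.76, 13.03 and 13.60 at 50 mg/kg, against 6.80, 4.41, 8.05, 7.69 and 7.59 at 0 mg/kg. Every array at 50 mg/kg lay more than 4 log2 units above every array at 0 mg/kg, and replicate 2 at 0 mg/kg was the lowest. The log2 fold change was 6.28 (SE 0.60, 77.6-fold, adjusted p = 1e-11) and 6.22 without replicate 2 (adjusted p = 5.9e-10). Cyp1a2, the constitutive hepatic member of the family and a main oxidizer of aromatic amines, had 13.92, 13.77, 13.74 and 14.22 at 50 mg/kg, against 12.24, 12.17, 12.53, 12.88 and 13.19 at 0 mg/kg. The groups did not overlap, and the rise was 1.31 (SE 0.17, adjusted p = 7e-08), equal to the value without replicate 2 (1.31). Cyp1b1, an extrahepatic member that oxidizes estrogens and polycyclic hydrocarbons, had 8.45, 4.84, 6.78 and 10.36 at 50 mg/kg, against 5.14, 5.08, 5.02, 5.07 and 4.81 at 0 mg/kg. Replicate 3 at 50 mg/kg lay among the 0 mg/kg arrays, replicate 5 lay highest, and the groups overlapped. Cyp1b1 rose by 2.58 (SE 0.46, adjusted p = 6.2e-05), by 2.30 without replicate 2 (adjusted p = 0.0023) and by 1.67 without replicate 5 (adjusted p = 0.0053), but was not called with only the 9 arrays in the fit (adjusted p = 0.19). All 3 of these genes rose with and without replicate 2, against 4.83% and 1.7% of all genes.

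The start regions of the AhR-linked genes were searched for the letters that AhR and its partner ARNT bind. Sequence farther from the start was not searched, so a gene without a match can still hold such a site. GCGTG, the core of that binding site, was searched on both strands of RefSeq promoter sequences (build GRCr8, 250 bases before to 50 after the start). The table held sequences for 4 of 7 genes looked up, of which 2 had a match. The sequence of Htatip2 had none and is not printed. Matches are in capitals, CACGC being the same letters on the opposite strand, and 29.7% of all 33469 promoters held at least 1. Cyp1b1 (chr6:21094315-21094614, + strand) held 1 on each strand, Nqo1 (chr19:52220218-52220517, − strand) 1 on the reverse strand, and Cyp1a2 (chr8:66978100-66978399, − strand) none.
Cyp1b1: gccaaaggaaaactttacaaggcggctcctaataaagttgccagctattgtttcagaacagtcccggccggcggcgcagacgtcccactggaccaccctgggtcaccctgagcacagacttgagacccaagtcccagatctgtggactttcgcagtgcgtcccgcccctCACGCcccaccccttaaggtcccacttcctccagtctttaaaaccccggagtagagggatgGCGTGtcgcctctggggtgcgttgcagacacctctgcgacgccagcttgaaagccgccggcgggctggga
Nqo1: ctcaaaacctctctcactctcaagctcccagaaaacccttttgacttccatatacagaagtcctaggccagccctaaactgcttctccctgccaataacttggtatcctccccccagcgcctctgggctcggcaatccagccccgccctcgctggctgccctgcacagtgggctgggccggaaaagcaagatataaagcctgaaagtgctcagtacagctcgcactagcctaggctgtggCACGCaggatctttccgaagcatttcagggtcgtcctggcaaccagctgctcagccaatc
Cyp1a2: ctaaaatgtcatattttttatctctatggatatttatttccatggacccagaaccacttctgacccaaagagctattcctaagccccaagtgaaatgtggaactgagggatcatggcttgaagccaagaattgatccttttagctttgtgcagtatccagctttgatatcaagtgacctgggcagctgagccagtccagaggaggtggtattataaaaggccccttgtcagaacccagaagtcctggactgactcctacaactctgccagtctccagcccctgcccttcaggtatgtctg

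Among 14 further genes of the AhR pathway and dioxin response, 6 rose and 0 fell (4 and 0 without replicate 2), with a median log2 fold change of 0.38. Nqo1, a quinone reductase that AhR and NRF2 both control, had 12.16, 11.46, 11.70 and 12.30 at 50 mg/kg, against 10.86, 10.56, 9.97, 10.18 and 10.18 at 0 mg/kg. All 50 mg/kg arrays were higher, and Nqo1 rose 2.93-fold (log2 1.55, SE 0.38, adjusted p = 0.0037, 0.032 without replicate 2). Aldh3a1, an aldehyde dehydrogenase that is a textbook dioxin-responsive gene, had 6.20, 3.53, 3.91 and 7.10 at 50 mg/kg, against 3.76, 3.66, 3.61, 3.49 and 3.69 at 0 mg/kg. Replicates 2 and 5 lay far above the rest and the groups overlapped at replicate 3. It rose by 1.54 (adjusted p = 9.4e-05) and by 0.90 without replicate 5 (adjusted p = 0.0071). Selenbp1, which encodes a selenium-binding protein, rose by 1.24 (adjusted p = 3.1e-06) and Htatip2, an NADPH-binding oxidoreductase gene, by 1.25 (adjusted p = 5.1e-05), in both without overlap. The receptor gene itself, Ahr, chosen after its values were seen, had 6.55, 7.32, 7.13 and 6.64 at 50 mg/kg, against 5.43, 6.16, 6.48, 5.85 and 6.21 at 0 mg/kg, and the difference of 0.89 missed the threshold (adjusted p = 0.096) although the groups did not overlap.

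**Figure D2:**
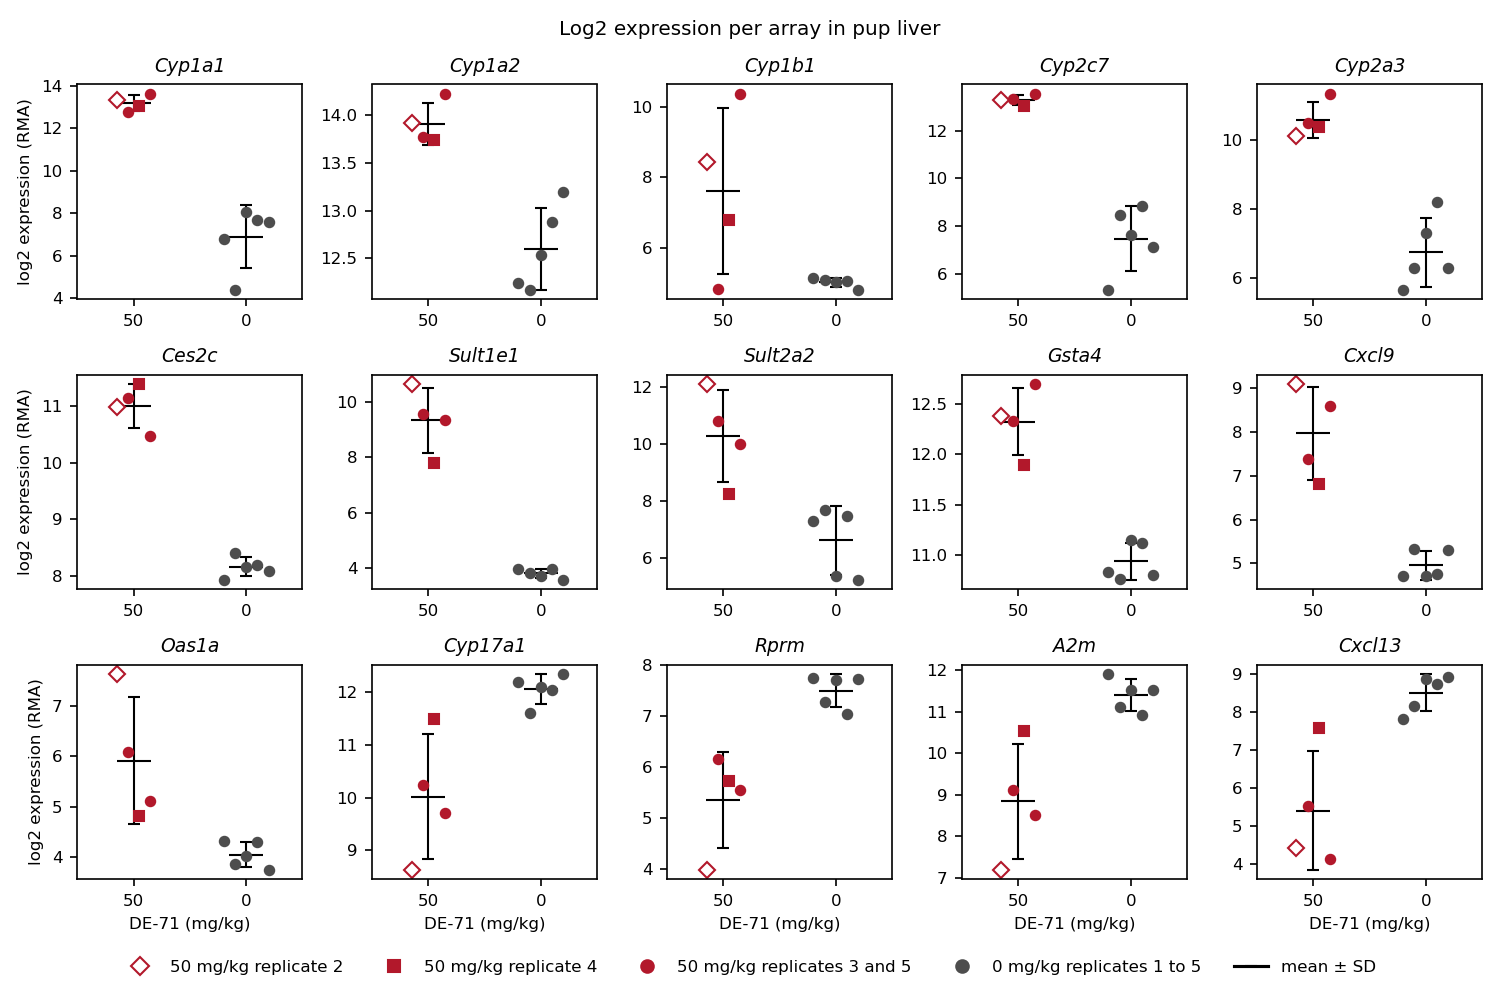
Log2 expression of 15 genes on each array, 50 mg/kg on the left and 0 mg/kg on the right of each panel, with the group mean and SD as a cross line and bar and replicate 2 of 50 mg/kg as an open diamond. The groups overlap in Cyp1b1 alone, and replicate 2 is the extreme 50 mg/kg array in Sult1e1, Sult2a2, Cxcl9, Oas1a, Cyp17a1, Rprm and A2m.

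Members of the Cyp2c, Cyp2a, Cyp2b and Cyp3a families of P450 genes rose beside the AhR genes, and which receptor acts on each was not tested. Cyp2c7, a retinoid- and steroid-oxidizing enzyme, had 13.28, 13.32, 13.01 and 13.52 at 50 mg/kg, against 5.34, 8.45, 7.63, 8.85 and 7.13 at 0 mg/kg. The 50 mg/kg arrays spanned 0.51 log2 units, the 0 mg/kg arrays 3.51, and no array overlapped. The rise was 5.80 (SE 0.68, 55.8-fold, adjusted p = 7.3e-09) and 5.80 without replicate 2. Of 7 Cyp2c genes measured, 4 rose and 0 fell with and without replicate 2. The others were Cyp2c6v1 by 0.78 (SE 0.09, adjusted p = 8.9e-09), Cyp2c11, the main male-specific P450 of adult rat liver, by 1.82 (SE 0.39, adjusted p = 0.0011), and Cyp2c13, also male-biased in adults, by 2.24 (SE 0.46, adjusted p = 0.00061). Replicate 4 was the lowest 50 mg/kg array of Cyp2c13, at 5.33, and overlapped with replicate 2 at 0 mg/kg, at 6.06.

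In the Cyp2a and Cyp2b list 3 of 6 genes rose with and without replicate 2, and the probe sets of Cyp2b1 and Cyp2b2 carry more than 1 gene and were not used. Cyp2a3, a coumarin-type hydroxylase, had 10.14, 10.50, 10.38 and 11.34 at 50 mg/kg, against 5.66, 6.28, 7.31, 8.20 and 6.30 at 0 mg/kg. The lowest 50 mg/kg array, replicate 2, lay above the highest 0 mg/kg array, and Cyp2a3 rose 14.3-fold (log2 3.84, SE 0.56, adjusted p = 1.5e-06). Cyp2a1, a testosterone 7-alpha-hydroxylase, rose by 0.81 (adjusted p = 0.0044), and Cyp2b21 by 0.63 (adjusted p = 0.0011, 0.39 and 0.031 without replicate 4 of 50 mg/kg). Of 4 Cyp3a genes 2 rose both ways. Cyp3a23-3a1, a main PXR-induced drug oxidase, had 13.90, 13.76, 13.87 and 13.71 at 50 mg/kg, against 12.82, 12.94, 12.76, 12.70 and 12.95 at 0 mg/kg, a rise of 0.98 (SE 0.12, adjusted p = 7.3e-09) with no overlap, and Cyp3a9 rose by 0.56 (adjusted p = 0.0011), or by 0.37 without replicate 3 (adjusted p = 0.029). The 2 receptor genes, Nr1i3 for CAR and Nr1i2 for PXR, also chosen after their values were seen, differed by -0.12 (adjusted p = 0.85) and -0.13 (adjusted p = 0.74), with overlapping groups.

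Ces2c, a carboxylesterase that splits ester drugs, had 10.98, 11.15, 11.39 and 10.48 at 50 mg/kg, against 7.93, 8.41, 8.16, 8.19 and 8.09 at 0 mg/kg. The groups stood more than 2 log2 units apart, with a rise of 2.85 (SE 0.25, 7.19-fold, adjusted p = 8.7e-13) that was 2.85 without replicate 2. Among the 6 carboxylesterase-related genes 1 other was called: Aadac, a microsomal arylacetamide deacetylase, fell by 0.46 (adjusted p = 0.0013). Few genes of other P450 families were called. Of 12 other Cyp2 genes Cyp2e1, which oxidizes ethanol and small solvents, fell by 0.46 (SE 0.08, adjusted p = 1.4e-05) and 0 rose. Of 10 Cyp4 fatty acid hydroxylase genes 1 rose and 1 fell (0 to 2 fallen without single arrays). Cyp4a8 rose by 1.79 (adjusted p = 0.0047), and Cyp4f1 fell by 0.48 (adjusted p = 0.0052) with all arrays but was not called without replicate 2 (adjusted p = 0.15).

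Genes that supply P450 enzymes with electrons and heme moved the same way. Of 16 on that list 8 rose and 0 fell, with a median of 0.42. The counts were 6 and 0 without replicate 2, and 1 and 0 with only the 9 arrays in the fit. Por, the reductase that passes electrons to every microsomal P450, had 10.74, 9.94, 9.98 and 10.47 at 50 mg/kg, against 9.32, 8.83, 8.66, 8.83 and 9.09 at 0 mg/kg. No array overlapped, and the rise was 1.34 (SE 0.22, adjusted p = 1.4e-05). Alas1, the rate-limiting enzyme of heme synthesis, rose by 1.05 (adjusted p = 0.0018), ferrochelatase (Fech), which inserts the iron, by 0.46, cytochrome b5 (Cyb5a) by 0.40, the heme-binding protein gene Pgrmc1 by 0.46 and the biliverdin reductase gene Blvrb by 0.93. Each of these 5 stood above the 0 mg/kg arrays on all 50 mg/kg arrays and was called without replicate 2 as well. Hmox1, the heme-degrading oxygenase, had 11.55, 8.74, 8.69 and 8.63 at 50 mg/kg, against 8.24, 8.10, 7.96, 7.88 and 8.27 at 0 mg/kg. Replicate 2 alone lay near 11.5, and the rise of 1.31 (adjusted p = 0.02) was 0.60 without it (adjusted p = 0.47).

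Genes of all 3 main transferase families rose. Of 9 UDP-glucuronosyltransferase genes 8 rose and 0 fell (5 and 0 without replicate 2), with a median of 0.66. Ugt2b1, which conjugates steroids and drugs, had 13.58, 13.44, 13.39 and 13.53 at 50 mg/kg, against 12.20, 12.29, 12.42, 12.16 and 12.24 at 0 mg/kg. All 50 mg/kg arrays were higher. It rose by 1.22 (SE 0.13, adjusted p = 9.9e-11), Ugt2a1 by 1.20 (adjusted p = 6.8e-07), Ugt2b15 by 0.71, Ugt2b10 by 0.63 and Ugt2b35 by 0.37, all 5 without overlap and called both ways. The gene listed as Ugt2b had 8.27, 4.68, 6.05 and 8.84 at 50 mg/kg, against 3.69, 5.42, 3.99, 4.44 and 4.15 at 0 mg/kg. Replicates 2 and 5 were high and replicate 3 lay among the 0 mg/kg arrays, and its rise of 2.62 (adjusted p = 0.004) was not called without replicate 2 (2.18, adjusted p = 0.069).

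Sulfotransferases split into large rises and small falls. Sult1e1, which inactivates estrogens by sulfation, had 10.62, 9.54, 7.77 and 9.33 at 50 mg/kg, against 3.96, 3.83, 3.73, 3.97 and 3.58 at 0 mg/kg. Replicate 4 was the lowest 50 mg/kg array and still lay more than 3 log2 units above every 0 mg/kg array, where values spanned only 0.39. The rise was 5.50 (SE 0.63, 45.3-fold, adjusted p = 2.6e-09) and 5.07 without replicate 2. Sult2a2, a hydroxysteroid and bile acid sulfotransferase, had 12.11, 10.82, 8.27 and 10.01 at 50 mg/kg, against 7.32, 7.70, 5.36, 7.47 and 5.24 at 0 mg/kg. Replicates 2 and 4 bounded the 50 mg/kg arrays, none of which overlapped with 0 mg/kg, and the rise was 3.68 (SE 0.68, adjusted p = 9.8e-05) or 3.08 without replicate 2 (adjusted p = 0.0055). Sult1b1, which sulfates thyroid hormones, rose 4.22-fold (log2 2.08, SE 0.36, adjusted p = 3.5e-05). These are the 3 of 15 genes that rose; 3 others fell with all arrays and 0 without replicate 2, the phenol sulfotransferase gene Sult1a1 among them (-0.47, adjusted p = 0.0089, 0.13 without replicate 2). Without replicate 2 of the 0 mg/kg group 1 fell, and likewise 1 without its replicate 5.

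Of 21 glutathione S-transferase genes 9 rose and 0 fell (8 and 0 without replicate 2), with a median of 0.52. Gsta4, which conjugates the lipid peroxidation product 4-hydroxynonenal, had 12.38, 12.33, 11.89 and 12.69 at 50 mg/kg, against 10.84, 10.77, 11.15, 11.12 and 10.81 at 0 mg/kg. The groups stood 0.74 log2 units apart at their closest arrays, and the rise of 1.39 (SE 0.12, adjusted p = 8.7e-13) was 1.37 without replicate 2. Gstt3 rose by 1.07, Gstm1 by 0.94, Gstt1 by 0.89, Mgst2 by 0.82 and Gsta1 by 0.52 (adjusted p at most 6.1e-05). Gstp3, which is outside that list, went the other way, with 10.09, 11.33, 11.59 and 10.21 at 50 mg/kg, against 11.86, 11.89, 12.56, 12.69 and 12.41 at 0 mg/kg. It fell by 1.48 (SE 0.28, adjusted p = 0.00021, 0.0089 without replicate 2) with no overlap.

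The NRF2 target list had 16 risen and 0 fallen of 26 genes (8 and 0 without replicate 2), with a median of 0.66. Akr7a3, an aflatoxin aldehyde reductase, had 10.96, 10.09, 10.45 and 11.17 at 50 mg/kg, against 9.06, 7.78, 7.40, 7.0 and 8.14 at 0 mg/kg and rose 6.92-fold (log2 2.79, SE 0.56, adjusted p = 0.00042). Its closest arrays were replicate 3 at 50 mg/kg and replicate 1 at 0 mg/kg, and the groups did not overlap. Ephx1, microsomal epoxide hydrolase, rose by 1.74 (SE 0.28, adjusted p = 8.9e-06), the malic enzyme gene Me1, which yields NADPH, by 1.94 (adjusted p = 0.00046), Akr7a2 by 0.68 and carbonyl reductase (Cbr1) by 0.66. All of these were called without replicate 2 too. Several of them are also known targets of CAR, and the list shares 2 genes with the AhR list.

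Export and uptake genes changed in a few members. Abcc3, a pump that returns glucuronides to the blood, had 9.30, 9.23, 9.52 and 9.44 at 50 mg/kg, against 7.94, 7.35, 7.73, 7.62 and 7.45 at 0 mg/kg. Every 50 mg/kg array was higher, with a rise of 1.75 (SE 0.25, adjusted p = 6.8e-07), and Abcc2, its counterpart at the bile canaliculus, rose by 1.13 (SE 0.20, adjusted p = 4.6e-05). They were the 2 of 11 export pump genes that rose with and without replicate 2. The ATP-binding cassette gene Abcc6 fell with all arrays (-0.54, adjusted p = 0.032) but not without replicate 2 (-0.32, adjusted p = 0.42), and lost its call in 4 more of the 9 fits that left out 1 array. Among 16 uptake transporter genes 3 rose and 1 fell (3 and 0 without replicate 2). The fall was that of Slc10a1, the bile acid uptake carrier (-0.37, adjusted p = 0.0047, but -0.19 and 0.25 without replicate 2). Leaving out single arrays gave 1 to 3 risen uptake genes (1 without replicate 5 of 50 mg/kg) and 0 to 3 fallen.

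**Figure D3:**
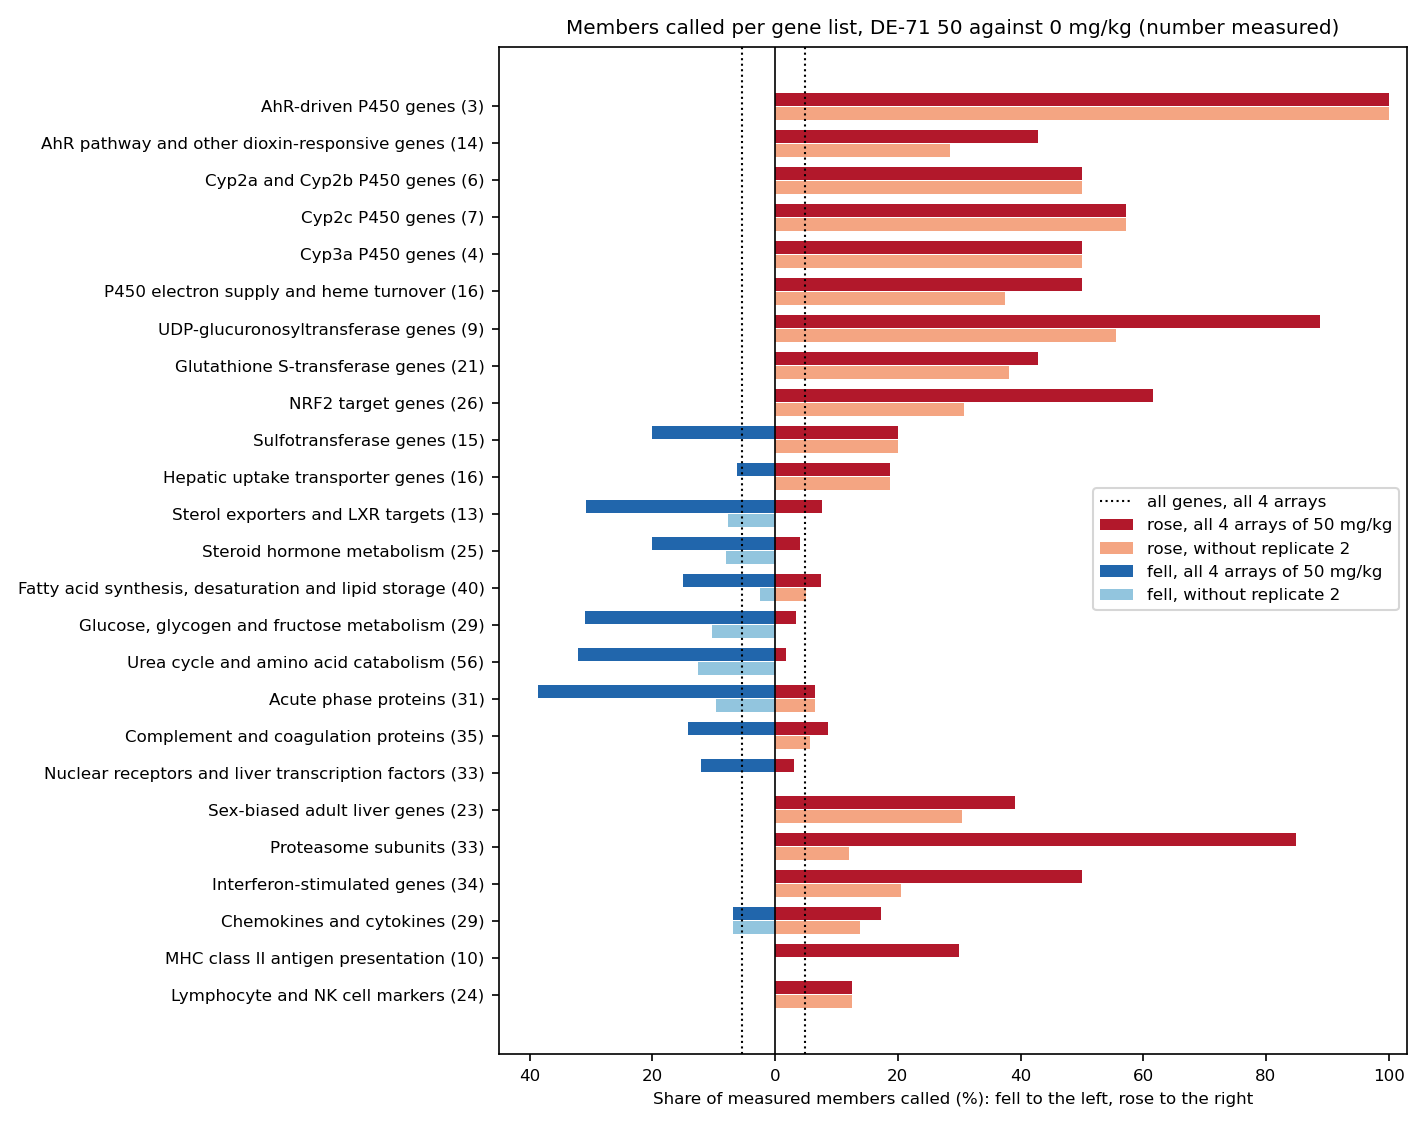
Bars give the share of the measured members of 25 gene lists that rose (right) or fell (left) at 50 against 0 mg/kg, dark with all 4 arrays of 50 mg/kg and light without replicate 2, and dotted lines mark the shares among all genes with all arrays (4.83% and 5.35%). Lists of P450 and conjugation genes keep most of their bars without replicate 2, while the proteasome list falls to 4 of 33 members, against 28 with it.

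Thyroid hormone genes changed in 4 of 19 members. Beside Sult1b1 and Me1, which thyroid hormone also regulates, both risen, Thrb, a thyroid hormone receptor, fell with all arrays (-0.39, adjusted p = 0.013) but not without replicate 2 (adjusted p = 0.17). Serpina7, thyroxine-binding globulin, had 9.83, 8.85, 10.64 and 7.40 at 50 mg/kg, against 10.08, 11.33, 11.18, 10.93 and 10.02 at 0 mg/kg. The groups overlapped, replicate 5 at 50 mg/kg was the lowest array, and the fall of 1.53 (adjusted p = 0.01) was -0.94 (adjusted p = 0.14) without it, which left 0 fallen genes in the list. The deiodinase gene Dio1 differed by -0.05 (adjusted p = 0.95), the carrier gene Ttr by -0.03 (adjusted p = 0.78) and Thrsp, a thyroid hormone-responsive gene, by 0.16 (adjusted p = 0.88).

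Steroid metabolism had 1 gene risen and 5 fallen of 25 (0 and 2 without replicate 2). Cyp17a1, an enzyme of androgen synthesis, had 8.63, 10.23, 11.50 and 9.71 at 50 mg/kg, against 12.20, 11.61, 12.09, 12.04 and 12.34 at 0 mg/kg. Replicate 4 lay just below the 0 mg/kg arrays and replicate 2 lowest. It fell by 2.04 (SE 0.27, adjusted p = 2.1e-07) and by 1.58 without replicate 2 (adjusted p = 4e-05). Hsd17b13, a lipid droplet retinol dehydrogenase, fell by 0.62 (SE 0.10, adjusted p = 4.2e-06), also without overlap and called both ways. Hsd17b6 and the glucocorticoid receptor gene Nr3c1 fell with all arrays (-1.23 and -0.44) but not without replicate 2 (adjusted p = 0.052 and 0.21).

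Of 28 retinoid genes 2 rose and 1 fell with all arrays, near the shares over all genes (4.83% risen and 5.35% fallen). Leaving out single arrays gave 1 to 2 risen and 0 to 1 fallen. Aldh1a1, which makes retinoic acid, had 13.04, 12.74, 12.88 and 12.80 at 50 mg/kg, against 11.79, 11.87, 11.18, 11.09 and 11.38 at 0 mg/kg. Its 50 mg/kg arrays lay close together and above every control, a rise of 1.40 (SE 0.16, adjusted p = 2.6e-09). The flavin monooxygenase gene Fmo1 was the only called gene of 4 in its list, with 8.32, 9.11, 10.42 and 9.91 at 50 mg/kg, against 10.71, 11.22, 10.73, 10.94 and 11.31 at 0 mg/kg. Replicate 2 was lowest and replicate 4 closest to the controls, and Fmo1 fell 2.91-fold (log2 -1.54, SE 0.27, adjusted p = 6.2e-05, 0.007 without replicate 2).

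Among sterol, bile acid and fat genes more calls were falls than rises, and most needed replicate 2. Of 13 sterol exporters and LXR targets 1 rose and 4 fell (0 and 1 without replicate 2, with 0 to 1 risen without single arrays). Abcg8, which with Abcg5 pumps sterols into bile, had 3.90, 4.15, 5.67 and 4.70 at 50 mg/kg, against 6.02, 7.38, 5.77, 5.79 and 7.10 at 0 mg/kg. The 50 mg/kg arrays were all lower, replicate 4 only slightly so, and Abcg8 fell by 1.81 (SE 0.43, adjusted p = 0.0033, just under the threshold without replicate 2). Its partner Abcg5 fell by 1.61 (adjusted p = 0.007, 0.071 without replicate 2). Srebf1, the lipogenic transcription factor, fell by 1.01 (adjusted p = 0.0025, 0.085 without replicate 2).

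In bile acid synthesis and conjugation 3 of 19 genes fell (1 without replicate 2) and 0 rose. Slc27a5, the ligase that activates bile acids for conjugation, had 11.56, 12.28, 12.50 and 12.12 at 50 mg/kg, against 12.72, 12.82, 12.86, 12.80 and 12.90 at 0 mg/kg. No array overlapped, and it fell by 0.71 (SE 0.11, adjusted p = 3.9e-06). The rate-limiting enzyme Cyp7a1 differed by 0.03 (adjusted p = 0.98). Of 40 fatty acid synthesis and storage genes 3 rose and 6 fell (2 and 1 without replicate 2, and 5 risen without replicate 1 of 0 mg/kg). Acsl5, an acyl-CoA synthetase, fell by 0.84 (SE 0.13, adjusted p = 5.1e-06), and the lipid droplet coat gene Plin3 rose by 0.82 (adjusted p = 0.00067), both also without replicate 2. Of 24 cholesterol synthesis and uptake genes 1 rose and 1 fell (0 and 1 without replicate 2): Scap, the escort protein of the sterol sensor, fell both ways (-0.68, adjusted p = 0.00089, 0.03 without replicate 2).

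Of 56 urea cycle and amino acid genes 18 fell and 1 rose (7 and 0 without replicate 2), with a median of -0.28 and -0.18 without it. Prodh2, a hydroxyproline dehydrogenase, had 10.45, 10.69, 10.36 and 10.03 at 50 mg/kg, against 10.90, 10.92, 11.43, 11.46 and 10.84 at 0 mg/kg. It fell by 0.72 (SE 0.11, adjusted p = 1.9e-06), and by 0.75 without replicate 2, as large without that array. Agxt, which detoxifies glyoxylate, fell by 0.80 (adjusted p = 0.00045), glutamate dehydrogenase (Glud1) by 0.72 and the kynurenine hydroxylase gene Kmo by 0.50. Cps1, the entry step of the urea cycle, had 12.26, 12.82, 13.10 and 12.89 at 50 mg/kg, against 13.32, 13.13, 13.14, 13.30 and 13.28 at 0 mg/kg. Replicate 2 was the lowest array, and the fall of 0.47 (adjusted p = 0.00012) was 0.30 without it (adjusted p = 0.018).

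Of 29 genes of glucose, glycogen and fructose metabolism 9 fell and 1 rose (3 and 0 without replicate 2). Tkfc, the triokinase of fructose breakdown, fell by 1.0 (SE 0.20, adjusted p = 0.00046), the liver glycogen phosphorylase gene Pygl by 0.55 (SE 0.10, adjusted p = 0.0001) and Fbp1, a gluconeogenic enzyme, by 0.44 (adjusted p = 0.002); these are the 3 called both ways. The transporters Slc2a2 and Slc37a4 fell with all arrays (-0.51 and -0.59) but not without replicate 2 (adjusted p = 0.23 and 0.076). Pck1, the gluconeogenic entry enzyme, differed by -0.59 (adjusted p = 0.17), and by -0.87 (adjusted p = 0.033) without replicate 4.

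A2m, alpha-2-macroglobulin, a protease inhibitor that is the main acute phase protein of the rat, had 7.19, 9.11, 10.54 and 8.52 at 50 mg/kg, against 11.90, 11.12, 11.53, 10.93 and 11.53 at 0 mg/kg. Replicate 2 was lowest, replicate 4 nearest to the controls, and no array overlapped. It fell 5.9-fold (log2 -2.56, SE 0.34, adjusted p = 1.2e-07), and the difference was -2.01 on the log2 scale without replicate 2 (adjusted p = 2.3e-05). Of 31 acute phase genes 12 fell and 2 rose (3 and 2 without replicate 2, with 4 risen without replicate 4). With only the 9 arrays in the fit 0 fell and 0 rose. Itih3 and Ambp, which encode a heavy chain and the light chain of inter-alpha-inhibitor, were the other falls called both ways (-0.34 and -0.16, adjusted p = 0.048 and 0.024 without replicate 2), and Lcn2, lipocalin 2, rose by 1.5 (adjusted p = 0.0016, 0.042 without replicate 2). Of 35 complement and coagulation genes 3 rose and 5 fell (2 and 0 without replicate 2). The risen ones called both ways were Pros1, protein S (0.48, adjusted p = 0.00035), and C1r, a complement protease (0.56, adjusted p = 0.0038), while among the 0 mg/kg arrays 3 genes fell without replicate 2, 3 without replicate 4 and 1 without replicate 5.

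Genes with a sex bias in adult rat liver rose in 9 of 23 measured members and fell in 0 (7 and 0 without replicate 2), with a median of 0.62. They include genes biased to males in adult rats (Cyp2c11, Cyp2c13, Sult1e1) and genes biased to females (Cyp2c7, Cyp2a1, Sult2a2), and these 6 are the P450 and sulfotransferase genes described above. Of 18 fetal and neonatal liver genes Igf2bp3, an RNA-binding protein of fetal tissue, fell by 0.75 (SE 0.14, adjusted p = 7.9e-05) with no overlap, and 1 to 3 fell when single arrays were left out. Afp, alpha-fetoprotein, differed by -0.78 with overlapping groups (adjusted p = 0.17).

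Rprm, reprimo, which p53 can induce and which halts cells before mitosis, had 3.99, 6.15, 5.73 and 5.55 at 50 mg/kg, against 7.73, 7.26, 7.69, 7.04 and 7.72 at 0 mg/kg. Replicate 2 lay lowest, and all 4 arrays lay under every control. It fell by 2.13 (SE 0.28, adjusted p = 1.2e-07) and by 1.68 without replicate 2 (adjusted p = 2.4e-05). Of 20 p53 targets 5 rose and 3 fell (1 and 1 without replicate 2, and 1 to 5 and 1 to 4 without single arrays of either group), the rise called both ways being Perp, a junction protein (0.62, adjusted p = 0.00059). The cell cycle inhibitor gene Cdkn1a differed by -0.59 (adjusted p = 0.18) and by -0.98 (adjusted p = 0.015) without replicate 3. Of 43 cell cycle genes 0 rose and 1 fell (0 to 2 without single arrays), Ccnd1, cyclin D1 (-1.35, adjusted p = 0.0064, 0.087 without replicate 2), and the proliferation marker Mki67 differed by -0.75 (adjusted p = 0.11) and by -0.95 (adjusted p = 0.043) without replicate 3. Of 37 stress response genes 2 rose and 3 fell (1 to 3 and 1 to 4 without single arrays). Slc3a2, an amino acid carrier subunit, rose (0.64, adjusted p = 0.0019) and Nupr1, a stress-induced nuclear protein, fell (-1.30, adjusted p = 0.002) both ways.

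Several lists had few calls, and these counts moved when single arrays of either group were left out. They are to be read against 4.83% risen and 5.35% fallen over all genes. Of 35 PPAR-alpha and fatty acid oxidation genes 2 rose and 2 fell (0 to 2 and 0 to 4 when 1 array was left out), and of 18 clock genes 1 and 2 (0 to 2 and 0 to 5). Of 17 growth hormone and IGF axis genes 0 rose and 1 fell (0 to 2 fallen), and of 58 respiratory chain subunits 1 and 4 (0 to 1 and 1 to 5). Of 33 nuclear receptor and transcription factor genes 1 rose and 4 fell (0 to 2 and 0 to 6), and of 17 metal and iron genes 0 were called (0 to 1 and 0 to 2). The fatty acid oxidation gene Cpt1a differed by -0.13 (adjusted p = 0.86).

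Chemokine genes changed in both directions. Cxcl9, an interferon-gamma-induced chemokine that attracts T cells, had 9.08, 7.37, 6.80 and 8.58 at 50 mg/kg, against 4.72, 5.34, 4.71, 4.75 and 5.31 at 0 mg/kg. All 50 mg/kg arrays were higher by more than 1 log2 unit, replicates 2 and 5 most. It rose 7.97-fold (log2 2.99, SE 0.36, adjusted p = 7.3e-09, 2.62 and 1.5e-06 without replicate 2). Cxcl13, which attracts B cells, had 4.40, 5.52, 7.57 and 4.12 at 50 mg/kg, against 7.81, 8.16, 8.87, 8.74 and 8.91 at 0 mg/kg. Replicate 4 at 50 mg/kg lay just under the lowest control and replicates 2 and 5 lowest, a fall of 3.09 (SE 0.43, 8.53-fold, adjusted p = 5.1e-07). Cxcl10 rose by 0.89 (adjusted p = 0.0023), Ccl5 by 1.16 (adjusted p = 0.0021) and Ccl4 by 0.54 (adjusted p = 0.002), while Il33, an alarmin of stromal and endothelial cells, fell by 1.29 (adjusted p = 7e-05). Of 29 chemokine and cytokine genes 5 rose and 2 fell (4 and 2 without replicate 2).

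Interferon-stimulated genes rose in 17 of 34 members with 0 fallen. The counts were 7 and 0 without replicate 2, and 1 and 0 with only the 9 arrays in the fit. The median of these genes was 0.58, and 0.46 without replicate 2. Their mean level per array was 7.62, 7.46, 6.81 and 7.18 at 50 mg/kg, against 6.46, 6.56, 6.80, 6.63 and 6.52 at 0 mg/kg, so replicates 2 and 3 were highest and replicate 4 reached the level of the highest control. Oas1a, an antiviral oligoadenylate synthetase, had 7.62, 6.08, 4.82 and 5.12 at 50 mg/kg, against 4.31, 3.87, 4.03, 4.29 and 3.75 at 0 mg/kg. Replicate 2 was highest, and every 50 mg/kg array lay above every control. It rose by 1.86 (SE 0.25, adjusted p = 1.9e-07) and by 1.29 without replicate 2 (adjusted p = 1.4e-05). Isg15, a ubiquitin-like antiviral protein, had 8.70, 7.82, 6.68 and 7.14 at 50 mg/kg, against 5.84, 5.73, 6.44, 6.10 and 5.93 at 0 mg/kg and rose by 1.58 (adjusted p = 4.1e-05) with no overlap. Ifi27l2b rose by 1.96, Usp18, which removes Isg15 from proteins, by 1.71, the RNA sensor gene Dhx58 by 0.89 and the transcription factor gene Irf7 by 0.82, each called without replicate 2 (adjusted p at most 0.046).

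The promoters of these genes are shown for the letters that interferon regulatory factors bind. GAAA, any 2 bases and again GAAA were searched on both strands of the same RefSeq windows (build GRCr8), and 3.92% of all promoters held them. The sequence of Cxcl9 had no match and is not printed. Sequences were in the table for 4 of the 8 interferon-linked genes looked up, and 3 of them had a match, given in capitals: Cxcl10 (chr14:15988816-15989115, + strand), Irf7 (chr1:205799974-205800273, − strand, where the match reads TTTC, 2 bases, TTTC because it lies on the opposite strand) and Oas1a (chr12:41330216-41330515, + strand, with 2 overlapping matches).
Cxcl10: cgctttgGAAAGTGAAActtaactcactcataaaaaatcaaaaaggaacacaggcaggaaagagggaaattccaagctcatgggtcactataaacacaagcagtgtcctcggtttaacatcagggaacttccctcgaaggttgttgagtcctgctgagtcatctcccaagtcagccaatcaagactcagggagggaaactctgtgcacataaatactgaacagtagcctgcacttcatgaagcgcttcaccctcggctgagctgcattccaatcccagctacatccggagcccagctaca
Irf7: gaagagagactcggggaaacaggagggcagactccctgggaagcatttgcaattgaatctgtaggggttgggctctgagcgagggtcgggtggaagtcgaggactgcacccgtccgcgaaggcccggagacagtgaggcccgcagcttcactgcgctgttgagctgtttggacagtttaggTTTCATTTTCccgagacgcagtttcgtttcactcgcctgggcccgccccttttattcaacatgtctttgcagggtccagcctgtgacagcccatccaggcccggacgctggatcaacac
Oas1a: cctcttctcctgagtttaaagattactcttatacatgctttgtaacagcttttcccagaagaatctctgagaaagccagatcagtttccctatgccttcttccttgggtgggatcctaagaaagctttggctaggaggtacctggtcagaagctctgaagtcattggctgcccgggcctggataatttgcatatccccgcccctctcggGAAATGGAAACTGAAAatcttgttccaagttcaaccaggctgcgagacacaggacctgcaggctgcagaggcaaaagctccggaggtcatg

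Proteasome subunit genes rose in 28 of 33 members with all arrays and in 4 without replicate 2, and 0 fell either way. With only the 9 arrays in the fit 0 rose and 0 fell. The median was 0.47 with and 0.32 without replicate 2. Their mean level per array was 10.32, 9.87, 9.70 and 9.98 at 50 mg/kg, against 9.53, 9.55, 9.68, 9.51 and 9.34 at 0 mg/kg; replicate 2 was highest and replicate 4 almost met the highest control. Psma1, a subunit of the core's outer ring, had 10.09, 9.93, 10.07 and 10.49 at 50 mg/kg, against 9.76, 9.77, 9.35, 9.37 and 9.45 at 0 mg/kg, and rose by 0.61 (SE 0.11, adjusted p = 9.8e-05) or 0.62 without replicate 2. Psma5 (0.57) and the assembly chaperone gene Psmd5 (0.67) were also called both ways, while the core subunit genes Psmb3 and Psmb5 were not (adjusted p = 0.063 and 0.067 without replicate 2).

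Markers of other liver cells were read beside these groups. Of 24 lymphocyte and natural killer cell markers 3 rose and 0 fell with and without replicate 2. Prf1, perforin of cytotoxic cells, had 4.57, 4.58, 4.12 and 4.25 at 50 mg/kg, against 3.55, 3.56, 3.44, 3.67 and 3.50 at 0 mg/kg, with all 50 mg/kg arrays higher (rise 0.84, SE 0.16, adjusted p = 0.00023), and Klrd1, a natural killer cell receptor, rose by 0.89 (adjusted p = 0.00057). The mean level of the whole list was 4.79, 4.57, 4.55 and 4.49 at 50 mg/kg, against 4.32, 4.40, 4.43, 4.47 and 4.38 at 0 mg/kg, so its ranges did not overlap but lay close. Of 20 Kupffer cell and macrophage markers 0 were called, with list means of 8.14, 8.06, 7.83 and 8.05 at 50 mg/kg, against 7.53, 8.03, 7.84, 7.79 and 7.72 at 0 mg/kg; up to 3 rose when a single array was left out (3 without replicate 4 of 50 mg/kg). Cd68 differed by 0.20 (adjusted p = 0.47) and Cd163 by -0.18 (adjusted p = 0.58). Of 10 MHC class II genes 3 rose and 0 fell. Without replicate 2 or replicate 5 of 50 mg/kg 0 rose, without replicate 1 or replicate 5 of 0 mg/kg 1, and without replicate 4 of 50 mg/kg 5. RT1-Ba, one of them, had 8.46, 7.31, 7.43 and 9.06 at 50 mg/kg, against 6.52, 6.96, 6.92, 6.62 and 6.76 at 0 mg/kg, a rise of 1.31 (adjusted p = 0.015) that was 1.18 without replicate 2 (adjusted p = 0.11) and 0.98 (adjusted p = 0.1) without replicate 5. Whether these markers had a part in the rise of the chemokine and interferon genes was not tested.

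Epcam, an adhesion molecule of bile duct cells and immature hepatocytes, had 9.45, 9.03, 8.80 and 8.79 at 50 mg/kg, against 8.03, 7.19, 7.92, 7.81 and 7.76 at 0 mg/kg and rose by 1.28 (SE 0.21, adjusted p = 1.3e-05). It was the only riser of 12 cholangiocyte markers, whose list means were 5.23, 5.19, 5.19 and 5.06 at 50 mg/kg, against 5.11, 4.88, 5.09, 5.28 and 5.12 at 0 mg/kg and overlapped. Of 24 stellate cell markers 2 rose and 3 fell, and of 21 endothelial markers 0 rose and 1 fell, with 0 called in either list without replicate 2 and up to 4 and 3 fallen without single arrays. Pdgfra and Pdgfrb, growth factor receptors of stellate cells, fell with all arrays (-0.80 and -0.78) and were not called without replicate 2 (adjusted p = 0.24 and 0.15). Of 18 erythroid markers 1 rose with all arrays and 0 to 1 without single arrays, of 11 neutrophil markers Lcn2 rose both ways, and of 29 pancreas, gut, fat and muscle markers 0 were called with all arrays (up to 2 risen with 1 array left out, without replicate 3). Of 20 hepatocyte markers 1 rose and 4 fell (1 and 2 without replicate 2, and 2 to 6 fallen without single arrays), the rise being Apoa2, an apolipoprotein of HDL, with 13.31, 12.97, 12.15 and 12.58 at 50 mg/kg, against 9.30, 10.47, 10.77, 11.33 and 9.60 at 0 mg/kg. Apoa2 rose 5.5-fold (log2 2.46, SE 0.40, adjusted p = 1.1e-05), with no overlap.

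Outside the lists, the genes with the largest changes that were called both ways and did not overlap were found in several cell functions. Cltrn, collectrin, a partner of amino acid carriers, had 7.39, 7.73, 5.18 and 6.71 at 50 mg/kg, against 2.78, 2.84, 2.92, 3.05 and 2.68 at 0 mg/kg. Replicate 4 was lowest of the 50 mg/kg arrays and still more than 2 log2 units above the controls, and the rise was 3.90 (SE 0.40, 14.9-fold, adjusted p = 8.8e-11). Snx10, a sorting nexin of endosomes, rose by 3.01 (SE 0.50, adjusted p = 1.4e-05), and Retreg1, a receptor for the autophagy of the endoplasmic reticulum, by 2.62 (SE 0.41, adjusted p = 6.6e-06). Cavin3, a coat protein of caveolae, had 10.50, 9.47, 9.11 and 10.18 at 50 mg/kg, against 7.07, 7.57, 7.72, 7.26 and 6.90 at 0 mg/kg and rose by 2.51 (adjusted p = 8.7e-08).

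Among the falls of the same kind, Slc6a6, the taurine transporter, had 4.98, 6.61, 7.20 and 5.58 at 50 mg/kg, against 8.47, 7.32, 8.40, 9.45 and 7.76 at 0 mg/kg. Replicate 2 was lowest, and replicate 4 lay just under replicate 2 of the 0 mg/kg group. It fell 4.56-fold (log2 -2.19, SE 0.44, adjusted p = 0.00046, 0.017 without replicate 2). Qsox1, a secreted sulfhydryl oxidase, fell by 1.74 (SE 0.28, adjusted p = 7.3e-06), and Lcmt1, which methylates protein phosphatase 2A, had 8.60, 8.77, 9.29 and 8.77 at 50 mg/kg, against 10.60, 9.91, 11.10, 10.45 and 9.94 at 0 mg/kg. Its fall of 1.54 (SE 0.19, adjusted p = 2.8e-08) was 1.46 without replicate 2. Cimap1b fell by 1.37 (adjusted p = 9e-06, 0.00031 without replicate 2).

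Of the 1448 called genes 1068 were not called without replicate 2, and 8 were called only without it. The largest rise among the 1068 was that of Rup2, a urinary protein gene, with 10.87, 6.70, 5.96 and 8.45 at 50 mg/kg, against 3.98, 4.43, 4.77, 5.29 and 4.47 at 0 mg/kg. All 50 mg/kg arrays lay above the controls, but replicate 2 lay more than 2 log2 units over the next, and the rise of 3.41 (adjusted p = 0.011) was 2.45 without it (adjusted p = 0.19). Ddit4l, an inhibitor of mTOR signalling, had 7.68, 5.41, 4.36 and 4.93 at 50 mg/kg, against 4.03, 3.74, 3.63, 3.68 and 3.93 at 0 mg/kg and rose by 1.79 (adjusted p = 0.00089, 1.10 and 0.076 without replicate 2). Cldn1, a tight junction protein, fell by 1.07 (adjusted p = 0.0015, -0.55 and 0.14 without it), and Slc34a2, a phosphate transporter, by 1.24 (adjusted p = 0.0036, -0.72 and 0.18 without it). Ubd, a ubiquitin-like protein of inflamed tissue, Spink1, a trypsin inhibitor, and S100a8, a calcium-binding protein of neutrophils, were high on replicate 2 by 4.26, 3.0 and 2.77 log2 units over the mean of the other 50 mg/kg arrays, and none of the 3 was called with all arrays. Ubd was called without replicate 4, at 1.97 (adjusted p = 0.034), and without replicate 5, at 2.04 (adjusted p = 0.035). H19, a fetal noncoding RNA, and Hamp, the iron hormone hepcidin, were low on it by 2.59 and 2.13 log2 units and were not called either.

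The lower doses share the 0 mg/kg arrays with this comparison, so their values are given side by side only. At 15 mg/kg 177 genes were called (1.24%) and at 0.1 mg/kg 0 (0%) were (limma, with 908 genes at an unadjusted p below 0.05). Replicates 1 and 2 of 15 mg/kg were nearly identical and counted as 1 sample in the tests. There that group has 4 samples, 1 of them the near copy of replicate 4 of 50 mg/kg. The means and SDs below count each array, both arrays of that pair included. Cyp1a1 averaged 6.91 ± 1.47, 9.27 ± 1.90, 12.83 ± 0.65 and 13.19 ± 0.37 (SD) at 0, 0.1, 15 and 50 mg/kg, with n = 5, 5, 5 and 4. Cyp2c7 averaged 7.48 ± 1.37, 9.07 ± 2.22, 13.01 ± 0.09 and 13.28 ± 0.21 (SD) at 0, 0.1, 15 and 50 mg/kg. In both, the means at 15 and 50 mg/kg lay within 1 log2 unit of each other, and the arrays at 0.1 mg/kg spread widest. Replicate 2 of 0.1 mg/kg lay closest to replicate 4 of 15 mg/kg (root mean square difference 0.79) and replicate 3 of 50 mg/kg (0.824). Its closest array at 0.1 mg/kg was replicate 4 (0.953), and its closest at 0 mg/kg was replicate 5 (1.055). How far that array moved the means, SDs and calls at 0.1 mg/kg was not tested. Ces2c had its highest mean at 15 mg/kg, with log2 differences from 0 mg/kg of 3.17 at 15 and 2.85 at 50 mg/kg. Gsta4 averaged 10.94 ± 0.18, 11.04 ± 0.19, 11.80 ± 0.23 and 12.32 ± 0.33 (SD) at 0, 0.1, 15 and 50 mg/kg, and Sult1e1 3.81 ± 0.16, 4.82 ± 2.61, 6.47 ± 1.81 and 9.32 ± 1.18 (SD) at 0, 0.1, 15 and 50 mg/kg. Both had their highest mean at 50 mg/kg. The log2 differences from 0 mg/kg were 1.68 at 15 and 3.68 at 50 mg/kg for Sult2a2, -0.65 and -2.04 for Cyp17a1, and -1.08 and -2.56 for A2m, of which none was called at 15 mg/kg (adjusted p = 0.32, 0.35 and 0.11).

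**Figure D4:**
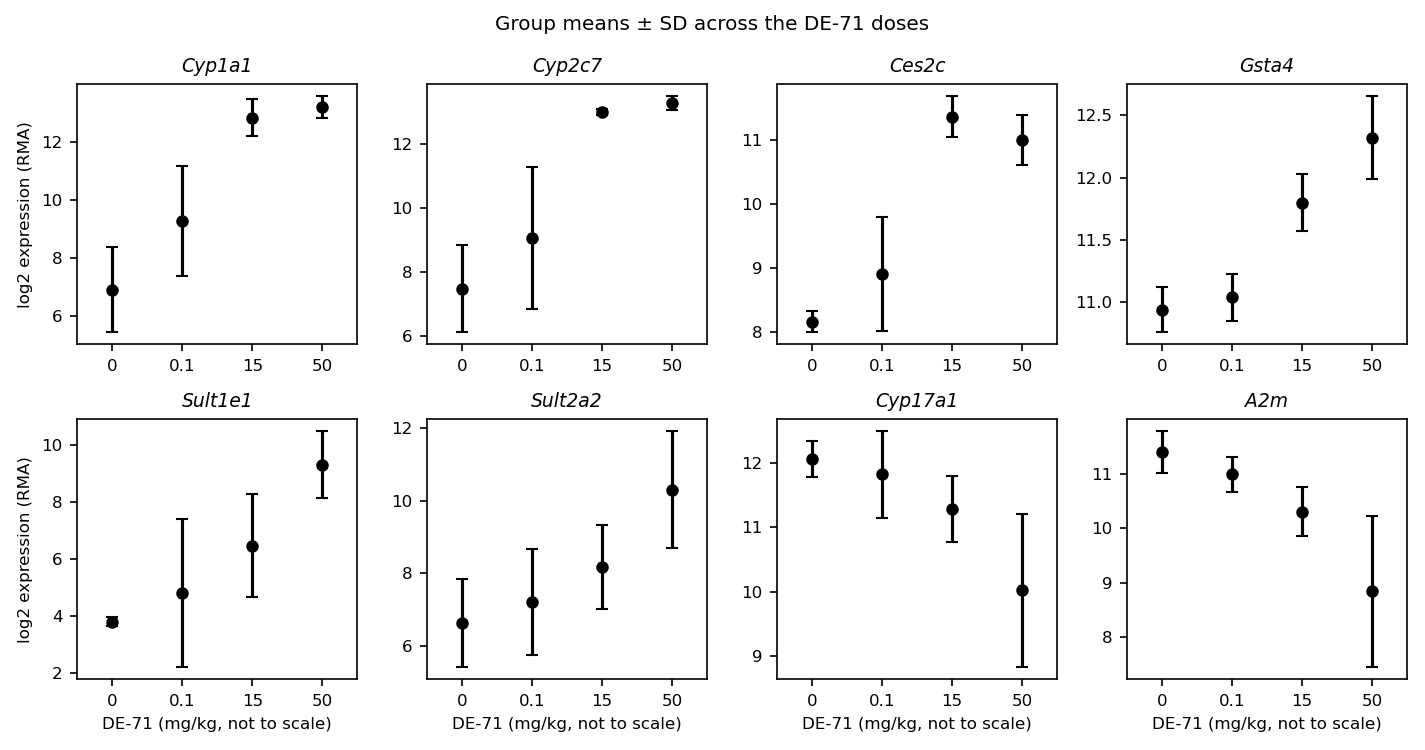
Group means with SD of 8 genes at 0, 0.1, 15 and 50 mg/kg of DE-71 (5, 5, 5 and 4 arrays), on the log2 scale, with doses spaced evenly and not to scale. Cyp1a1, Cyp2c7 and Ces2c are about as high at 15 as at 50 mg/kg, while the mean of Gsta4, Sult1e1 and Sult2a2 is highest, and that of Cyp17a1 and A2m lowest, at 50 mg/kg.

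BDE-47 at 50 mg/kg was given to another 5 pups with 5 controls of their own and called 573 genes (4.03%), and the difference of the 2 responses was tested directly (DE-71 change minus BDE-47 change). It was called in 17 genes, 15 higher and 2 lower (0.12% in all, 0.106% higher and 0.0141% lower), and in 2 without replicate 2 (0.0141%, 2 higher, 0 lower, with 940 genes at an unadjusted p below 0.05). With only the arrays of these 4 groups in the fit 0 were called, with 1250 genes at an unadjusted p below 0.05. BDE-47 50 mg/kg replicate 3 was nearly identical to a BDE-47 15 mg/kg array (0.105), and 2 BDE-47 0 mg/kg arrays were averaged as 1 sample. Cyp1a2 changed by 1.31 with DE-71 and by -0.26 with BDE-47 (SE 0.17), a difference of 1.57 (SE 0.24, adjusted p = 0.00015), called in all 19 fits that left out 1 array. Cyp1a1 changed by 6.28 and 2.11, a difference of 4.17 (SE 0.85, adjusted p = 0.017). That call was lost without replicate 2 of DE-71 50 mg/kg (4.12, adjusted p = 0.054) and without replicate 2 of BDE-47 0 mg/kg (3.73, adjusted p = 0.078).

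Prf1, the cytotoxic cell gene, changed by 0.84 with DE-71 and by -0.42 with BDE-47, a difference of 1.26 (SE 0.23, adjusted p = 0.0055) called in all 19 leave-1-out fits. Ccl5 changed by 1.16 and -0.82, a difference of 1.98 (SE 0.37, adjusted p = 0.0079, 1.86 and 0.054 without replicate 2). Of the 2 genes lower with DE-71, Rybp, a component of a Polycomb complex, changed by -0.77 and 0.03, a difference of -0.80 (adjusted p = 0.016, -0.66 and 0.11 without replicate 2). Pih1d1, a subunit of a chaperone complex, changed by 0.29 and -0.23 (difference 0.51, adjusted p = 0.016, 0.1 without replicate 2). Genes of antigen presentation and myeloid cells were also among the 15. RT1-Ba changed by 1.31 with DE-71 and by -1.06 with BDE-47 (difference 2.37, adjusted p = 0.03), the complement factor gene Cfp by 0.14 and -0.69 (difference 0.84, adjusted p = 0.018), and Ncf4, a subunit of the phagocyte oxidase, by 0.44 and -0.31 (difference 0.75, adjusted p = 0.021). RT1-Ba lost its call in 9 of the 19 fits, and Cfp and Ncf4 in 4 each, without replicate 2 of DE-71 50 mg/kg in all 3 cases (adjusted p = 0.15, 0.054 and 0.19).

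For genes of the CAR and PXR type the difference between DE-71 and BDE-47 was not called. It was 0.94 for Cyp2c7 (95% confidence interval -1.0 to 2.87), 0.09 for Cyp3a23-3a1 (-0.24 to 0.42) and 0.21 for Ugt2b1 (-0.15 to 0.56). For Ces2c it was -1.01 (-1.73 to -0.30, adjusted p = 0.29), and for Gsta4 0.66 (0.31 to 1.01, adjusted p = 0.1), each interval leaving out 0 although the adjusted p was above the threshold. Gsta4 was called without replicate 4 of DE-71 50 mg/kg (0.80, adjusted p = 0.011) and without replicate 4 of BDE-47 50 mg/kg (0.74, adjusted p = 0.045).

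**Figure D5:**
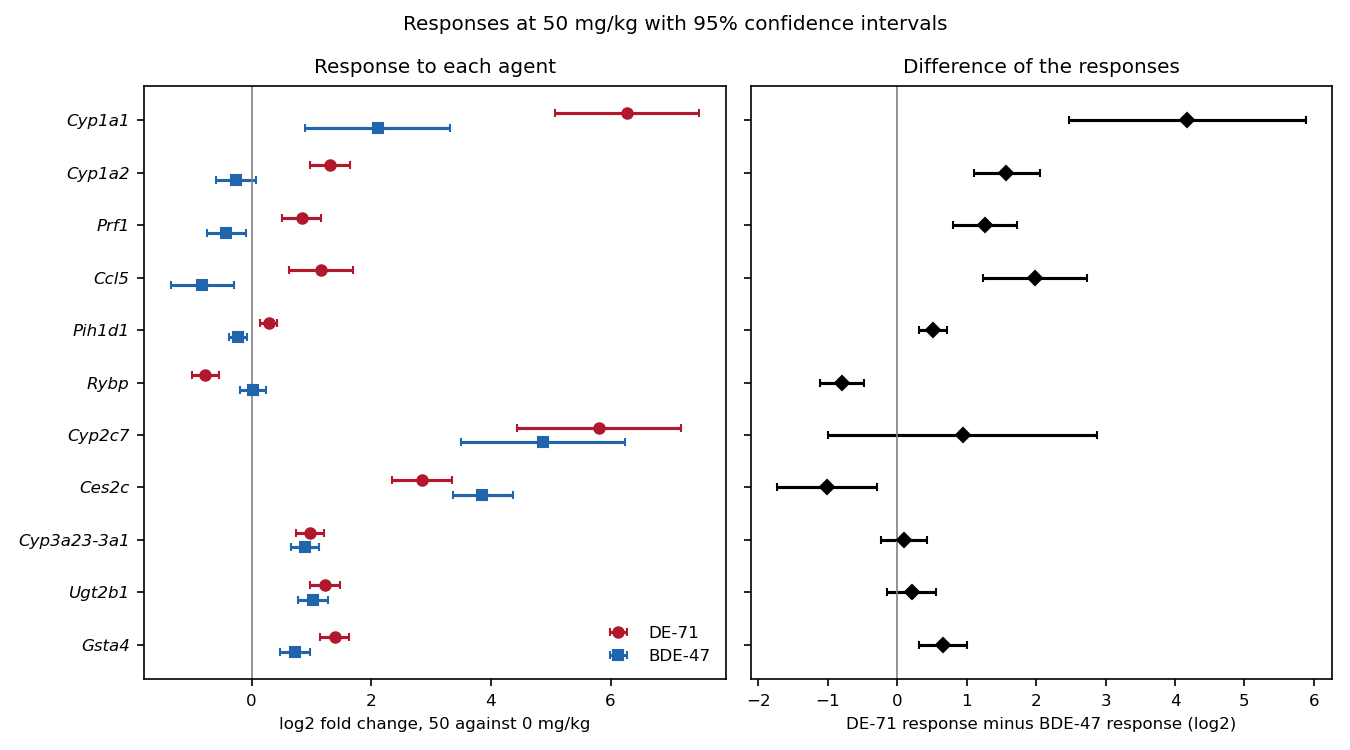
Left, log2 fold changes at 50 against 0 mg/kg of DE-71 (circles) and of BDE-47 (squares) for 11 genes, and right, the DE-71 change minus the BDE-47 change, each with its 95% confidence interval. Cyp1a1 and Cyp1a2 lie to the right of 0 in the difference, while the intervals of Cyp2c7, Cyp3a23-3a1 and Ugt2b1 include 0.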

How the data were processed

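The 9 arrays belong to a series of 74 Affymetrix rat arrays in 15 groups. The values are log2 expression summarised by RMA per the submitters' processing notes (no version given), and were used as deposited in the series' value table by the authors. Of 31099 probe sets 20826 name 1 gene in the platform annotation, 436 several and 9780 none, and 57 are controls. Each of 14217 genes was read from 1 such probe set, the one of highest mean, and 4525 genes had more than 1. Arrays of 1 group that differed by a root mean square below 0.3 were averaged, which left 72 samples. limma 3.58.1 (R 4.3.3) was fitted with 1 mean per group (57 residual and 5 prior degrees of freedom), moderated two-sided tests and Benjamini-Hochberg adjustment over all genes, with calls made at adjusted p values below 0.05. The number of arrays limits the precision.

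The gene lists (52, with 1106 of 1293 entries measured) and the members were chosen with earlier results of these data known. Genes named are the 12 largest changes per direction called with and without replicate 2 and not overlapping, up to 6 called members of a list by p (or its first 2 where none was called), the 6 largest per direction that needed replicate 2, the 8 per direction with the smallest p against BDE-47, the 6 per direction with replicate 2 farthest out, and index genes. Beside these, Ahr, Nr1i2 and Nr1i3 were chosen after their values were seen. Alternatives left out each array in turn, changed the arrays in the fit, their weights, normalization, filter, probe set, threshold and replicate block. Leaving out replicates 2 and 4 together and an RNA integrity covariate were added after seeing the data. On simulated data with 50 changed genes of each size the fit of 50 against 0 mg/kg recovered 24%, 74%, 94% and 100% of 1.25-, 1.5-, 2- and 4-fold changes. Without replicate 2 the shares were 10%, 62%, 94% and 98%. False calls numbered 6 with all arrays and 7 without replicate 2. The simulated noise was independent, with the same spread of a gene in all groups and no array that stood apart. The shares therefore need not hold for the real 50 mg/kg arrays.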

Additional observations from a re-analysis of the deposited data

Results flagged for a closer look

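Replicate 2 of 50 mg/kg had the lowest mean correlation with its group, 0.9783, and its gap to the others was large for the group's range. Each of 155 genes named gave 2 groups of values, the 50 and the 0 mg/kg arrays. The same test marked 1 array in 12 of these groups, 7 at 50 mg/kg and 5 at 0 mg/kg. Chance marks about 1 in 20 groups of independent values. The genes share the same arrays, and some were named because replicate 2 lay far out. The number of marks can therefore not be set against chance. The 7 marks at 50 mg/kg fell on replicate 2 (4) and replicate 4 (3). Replicate 2 of 50 mg/kg was highest in Blvrb (11.01), Hmox1 (11.55) and Ugt2b10 (11.95) and lowest in Slc34a2 (5.96). Replicate 4 of 50 mg/kg was lowest in Gstt1 (8.88) and Sult1b1 (11.86) and highest in Qsox1 (7.57). At 0 mg/kg, replicate 2 was highest in Cyp2c13 (6.06) and lowest in Cyp7a1 (8.80) and Thrsp (8.92), and replicate 1 was highest in Hamp (12.54) and Ugt2b35 (13.17).

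The response to DE-71 differed from that to BDE-47 at 50 mg/kg, by the test of the difference, in 10 of the genes named. The DE-71 change minus the BDE-47 change was 4.17 log2 units in Cyp1a1, 2.37 in RT1-Ba, 1.98 in Ccl5, 1.57 in Cyp1a2, 1.26 in Prf1 and 1.23 in Selenbp1. The call of Selenbp1 was lost in 6 of 19 fits that left out 1 array, among them that without replicate 2 of DE-71 50 mg/kg (1.01, adjusted p = 0.23). It was 0.84 in Cfp, 0.75 in Ncf4, 0.51 in Pih1d1 and -0.80 in Rybp.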

How the results depend on the processing

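Against 687 risen and 761 fallen genes with all arrays, leaving out single arrays gave 241 to 973 risen and 147 to 1043 fallen, the lowest of both without replicate 2 of 50 mg/kg. Counts were 85 and 33 with only the 9 arrays in the fit, 75 and 17 with those arrays without replicate 2, 217 and 133 with only the DE-71 arrays, 284 and 205 with array weights, 322 and 174 without replicates 2 and 4, and 359 and 273 at an adjusted p below 0.01. Against 15 genes higher and 2 lower in the DE-71 minus BDE-47 difference, leaving out single arrays gave 2 to 60 and 0 to 11. Counts were 25 and 3 with the RNA integrity covariate, 28 and 10 with near-identical arrays kept separate, 6 and 0 with array weights, 14 and 0 with the mean of all probe sets, 14 and 1 with a mean-dependent robust prior, 12 and 1 after another quantile normalization, 3 and 0 at 0.01, and 0 and 0 with only the 4 groups in the fit. The replicate block is given below, the other settings kept each of these 4 counts within 1.5 times, and the cause of the moves was not tested. No value of a named gene changed direction while called.

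With the replicate block 633 genes rose and 802 fell, and the difference from BDE-47 was called in 23 genes higher and 9 lower. The labels do not say whether a replicate number marks a shared litter or batch. Deviations of same-numbered arrays correlated at -0.05, 0.24, -0.09 and 0.39 for replicates 2 to 5. Of the 4 arrays of 50 mg/kg, 2 correlated best with their own number. So few pairs cannot show whether same-numbered arrays share a litter or batch.

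Of 198 genes under the naming rule that were called, 113 were called without replicate 2, 189 without replicate 4, 186 with the block, 123 with array weights, 98 with only the DE-71 arrays and 52 with only the 9 arrays. Those smaller fits estimate the spread from fewer samples and only from the groups in them. Replicate 2 of 50 mg/kg had an array weight of 0.2245, the lowest of the 9 arrays. Whether either of these lowered the counts was not tested. No detection calls were used here, so whether a low value lies above background is not known.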
